A study of Homo sapiens with 24 samples.

Results

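Nuclear import genes of the importin alpha and importin beta families were followed in HEK293T cells, which derive from human embryonic kidney, after knockdown or overexpression of the long non-coding RNA *FMR4*. The 9 genes were found by symbol in the probe annotation of the array. They include the importin alpha genes *KPNA1*, *KPNA3*, *KPNA4*, *KPNA5* and *KPNA6*. Not among them are 2 other measured importin alpha genes, *KPNA2* and *KPNA7*, which are counted in a list below. The 9 also include the importin beta gene *KPNB1*, the transportins *TNPO1* and *TNPO2*, and *NUP50*, a nucleoporin that works with importin alpha. These are 9 of 18417 genes with a probe set of a single symbol. Each of the 9 has exactly 1 such probe set, so all 9 were measured. Cells received FMR4 pcDNA3.1, the plasmid that carries *FMR4*, or CTRL pcDNA3.1, the empty vector, at 0.5 μg, or FMR4 siRNA or CTRL siRNA at 40 nM, and RNA was taken at 24 or 6 h. Each of these 8 conditions has 3 arrays, and each array holds 1 biological replicate pooled from technical ones. The labels do not say whether the replicates came from separate cultures, so the p-values measure the spread between these samples. Plasmid and siRNA were delivered with different Lipofectamine reagents, so nucleic acid and reagent cannot be told apart in a comparison of the plasmid with the siRNA conditions.

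In classical nuclear import, an importin alpha protein is the adaptor that recognizes the nuclear localization signal of a cargo, and importin beta is the carrier that takes adaptor and cargo through the nuclear pore. Inside the nucleus the GTP-bound form of RAN releases importin beta, and NUP50 at the nuclear basket helps importin alpha to let go of the cargo. Transportins carry other cargoes, many of them RNA-binding proteins, without an importin alpha adaptor.

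No probe set carries a symbol of *FMR4* (0 for each of the names *FMR4*, *FMR1-AS1* and *ASFMR1*), so neither its knockdown nor its overexpression was read from these arrays. Values are log2 expression, and array medians lie between 7.43 and 7.53. The array that lies farthest from its group is FMR4 siRNA 6 h replicate 3, with a root mean square deviation of 0.183 over the 18417 genes. The lowest correlation within a group, over the same genes, is 0.9893. The 7 HEK293T markers, from *NES* (7.05), *PAX2* (7.39) and *LHX1* (7.5) up to *KRT18* (10.3) and *VIM* (12.1), are above a log2 level of 6. This level is the upper quartile of olfactory receptor and keratin-associated protein genes, which are mostly silent in such cells. Of 9 markers of other cell types 6 are also above it. The highest, *COL1A1* (8.31), exceeds *NES*, *PAX2* and *LHX1*, while *PTPRC* (4.35), *ALB* (4.81) and *PECAM1* (5.65) are below the level of 6. All 9 import genes are above this level in every condition. The number of arrays limits the precision, and in bulk RNA fewer expressing cells cannot be told from less RNA per cell. Calls of higher or lower expression rest on limma with an adjusted p under 0.05. Statements that groups of 3 arrays do not overlap are descriptions and no test, and the share of such genes among all is not given.

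**Figure D1:**
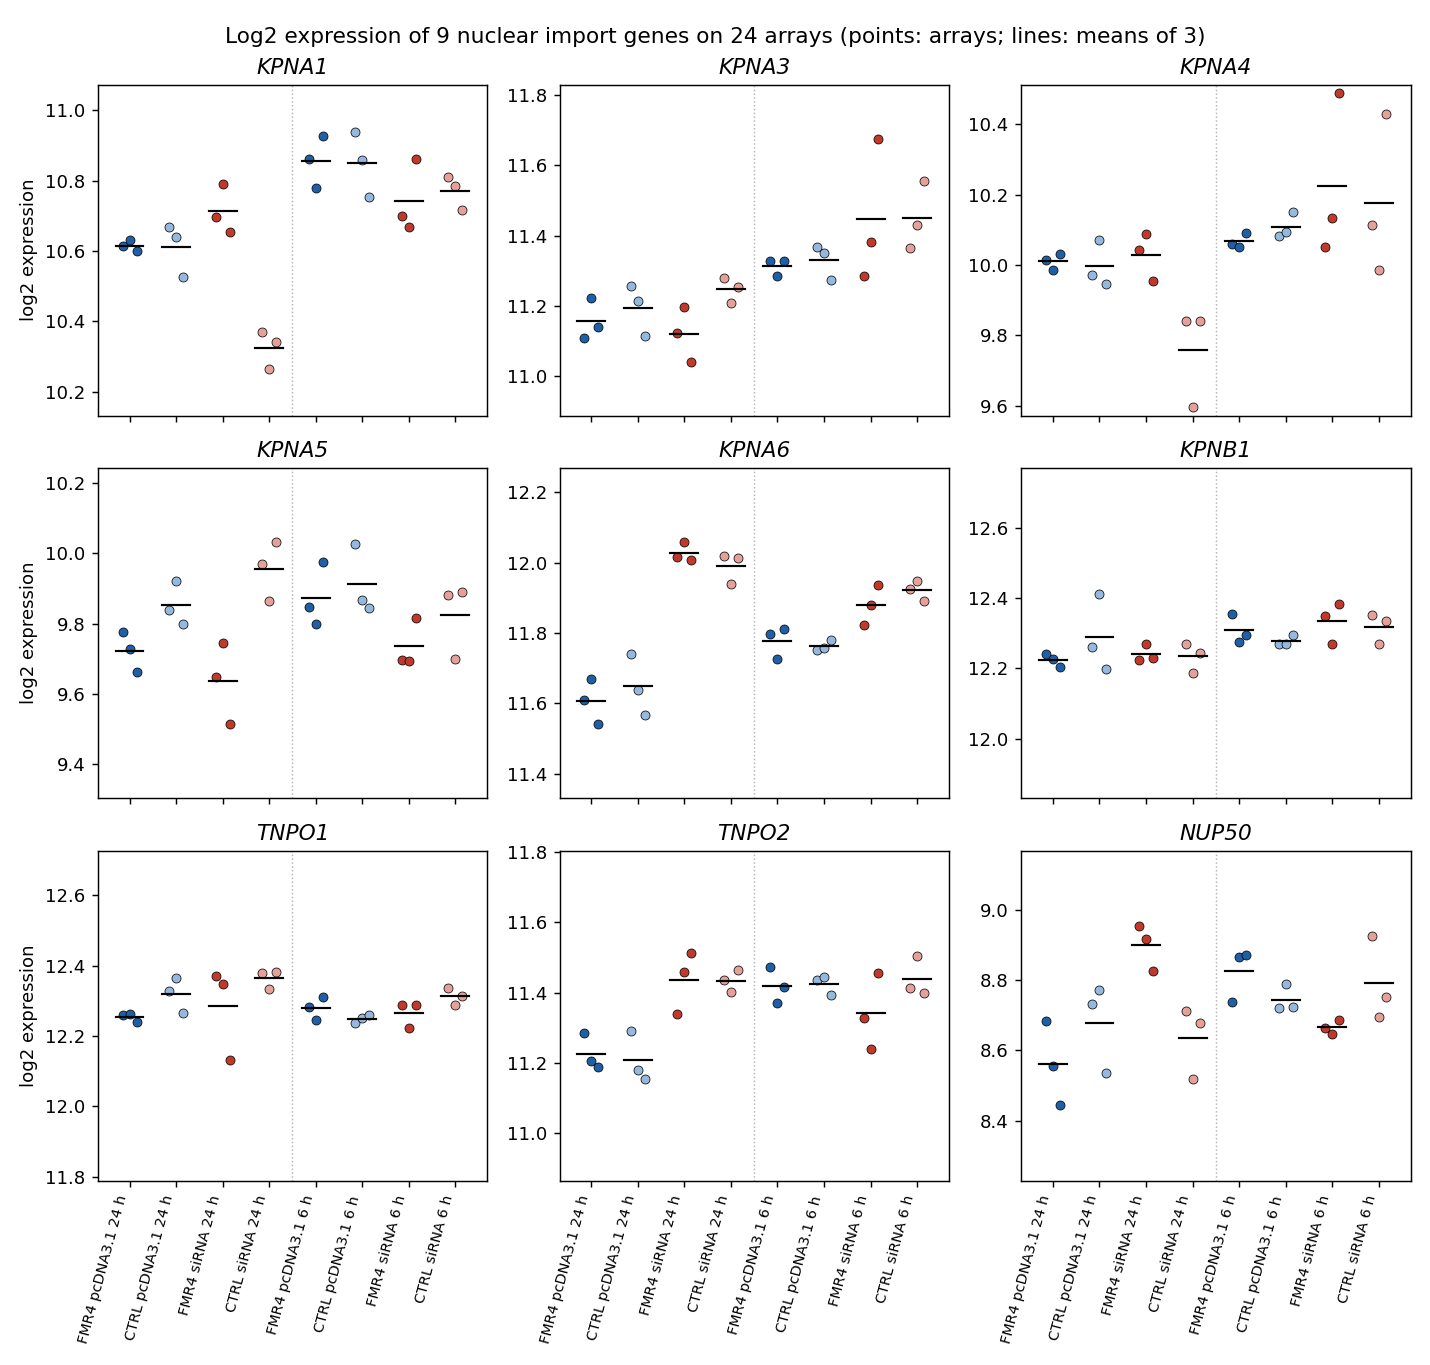
Log2 expression of the 9 import genes in 8 conditions, 24 h left of the dotted line and 6 h right of it. Points are arrays and lines are means of 3 arrays; every panel spans the same log2 range around its own gene. *KPNA1* and *KPNA4* are lowest with CTRL siRNA at 24 h, *KPNA6* and *TNPO2* are lower with both plasmids than with both siRNAs at 24 h, and *KPNB1* and *TNPO1* vary least.

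*FMR4* knockdown for 24 h was accompanied by a change in 3 of the 9 genes, with *KPNA1* and *NUP50* higher and *KPNA5* lower, while *KPNB1*, *TNPO2* and *KPNA6* stayed within 0.04 of their controls. Of all genes, 5.88% were called, 3.43% higher and 2.45% lower. *KPNA1* encodes an adaptor that binds cargo and links it to importin beta. Its log2 expression was 10.70, 10.79 and 10.65 with FMR4 siRNA, against 10.37, 10.27 and 10.34 with CTRL siRNA. Every FMR4 siRNA array lies above every CTRL siRNA array, and the CTRL siRNA arrays of 24 h also lie below all other arrays of the series. The difference is 0.39 (SE 0.064, 95% interval 0.26 to 0.52, limma adjusted p = 0.000329), or 1.31-fold. It was called in all 8 alternatives and in the absence of each of the 6 arrays (0.35 to 0.42). The other groups of 24 h give the level some context: *KPNA1* was at 10.62, 10.63 and 10.60 with FMR4 pcDNA3.1 and at 10.67, 10.64 and 10.53 with CTRL pcDNA3.1. These 6 plasmid arrays lie between the siRNA groups, above all CTRL siRNA arrays and, but for CTRL pcDNA3.1 replicate 1, below all FMR4 siRNA arrays.

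The promoters of *KPNA1* and *NUP50* are shown because both genes were called higher with FMR4 siRNA at 24 h. They come from RefSeq (GRCh38.p14). Promoters were at hand for 6 of the 9 genes (9 promoters of 300 bases each, from 250 before to 50 after a start site). For *NUP50* the first of its listed starts is printed. Capitals mark matches, on either strand, to 7 short motifs: the GC box GGGCGG, the CCAAT box CCAAT, the ETS motif CCGGAAG, the cyclic AMP response element TGACGTCA, the NRF1 core GCATGCGC, the E2F motif TTTCCCGC and the TATA box TATAAA.
*KPNA1* (chr3:122514890-122515189, minus strand): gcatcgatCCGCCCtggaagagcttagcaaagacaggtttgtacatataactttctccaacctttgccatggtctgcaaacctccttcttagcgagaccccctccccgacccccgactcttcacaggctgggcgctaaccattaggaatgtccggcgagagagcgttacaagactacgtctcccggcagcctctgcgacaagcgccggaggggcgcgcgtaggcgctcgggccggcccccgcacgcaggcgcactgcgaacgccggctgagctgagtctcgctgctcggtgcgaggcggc
*NUP50* (chr22:45163675-45163974, plus strand): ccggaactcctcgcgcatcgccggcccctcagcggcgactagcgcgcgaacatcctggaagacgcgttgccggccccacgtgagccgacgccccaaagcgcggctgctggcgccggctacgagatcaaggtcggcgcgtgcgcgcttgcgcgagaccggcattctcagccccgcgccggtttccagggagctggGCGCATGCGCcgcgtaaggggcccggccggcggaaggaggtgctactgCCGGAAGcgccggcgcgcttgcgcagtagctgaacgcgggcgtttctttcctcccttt
The *KPNA1* promoter has a GC content of 63.3% and holds 1 GC box, read on the opposite strand, a motif found in 45% of 35116 promoters. The *NUP50* promoter, with 71.3% GC, holds 1 ETS motif (10.3% of promoters) and the NRF1 core (3.05%), whose letters match on both strands in overlap. No motif of the 7 is in both printed windows. The window of the second *NUP50* start, which is not printed, holds 1 GC box, as the *KPNA1* window does. Of the 9 promoters, 5 hold a GC box, 3 a CCAAT box (34.6% of all promoters) and 1 a TATA box (11.5%), and none holds the cyclic AMP response element (1.85%) or the E2F motif (1.63%). A match is a stretch of letters, and binding was not measured.

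*KPNA5*, the importin alpha gene of the same subfamily as *KPNA1* and *KPNA6*, changed in the other direction. It was at 9.65, 9.74 and 9.51 with FMR4 siRNA at 24 h, against 9.97, 9.87 and 10.03 with CTRL siRNA. The groups do not overlap, with a difference of −0.32 (SE 0.073, 95% interval −0.47 to −0.17, limma adjusted p = 0.00844). The call was lost without FMR4 siRNA replicate 3 (adjusted p = 0.0572) or CTRL siRNA replicate 3 (0.055). Both plasmid groups had means between those of the siRNA groups, with arrays at 9.78, 9.73 and 9.66 with FMR4 pcDNA3.1 and 9.84, 9.92 and 9.80 with CTRL pcDNA3.1, although FMR4 pcDNA3.1 overlaps FMR4 siRNA and CTRL pcDNA3.1 overlaps CTRL siRNA.

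*KPNA4*, an adaptor known for NF-kB import together with its close relative *KPNA3*, was at 10.04, 10.09 and 9.96 with FMR4 siRNA, against 9.84, 9.60 and 9.84 with CTRL siRNA at 24 h. The groups do not overlap, but the difference of 0.27 (SE 0.0997) was not called (95% interval 0.06 to 0.48, adjusted p = 0.147). It was called with array weights (adjusted p = 0.0459) and with the replicate number as a block (0.0463), and CTRL siRNA replicate 2 lies lowest of the 24 arrays. *KPNA3* was at 11.12, 11.20 and 11.04 with FMR4 siRNA, against 11.28, 11.21 and 11.25 with CTRL siRNA. Its arrays do not overlap either, with a smaller difference of −0.13 (95% interval −0.29 to 0.03, adjusted p = 0.476). Within this pair of relatives the estimates thus have opposite signs, and neither passed the test. Whether probes of such related genes also detect each other's transcripts was not tested.

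*KPNA6*, the remaining importin alpha gene of the 9, was at 12.02, 12.06 and 12.01 with FMR4 siRNA, against 12.02, 11.94 and 12.01 with CTRL siRNA at 24 h. The groups overlap, and the 95% interval of the difference is −0.07 to 0.15. *KPNB1*, the single carrier that all importin alpha adaptors share, differed by 0.01 (95% interval −0.11 to 0.12), with 12.22, 12.27 and 12.23 for FMR4 siRNA against 12.27, 12.19 and 12.24 for CTRL siRNA. *TNPO2* was at 11.34, 11.46 and 11.51 with FMR4 siRNA and 11.43, 11.40 and 11.46 with CTRL siRNA (interval −0.12 to 0.13). *TNPO1*, the transportin known for carrying hnRNP A1, was at 12.37, 12.35 and 12.13 with FMR4 siRNA, against 12.38, 12.33 and 12.38 with CTRL siRNA. FMR4 siRNA replicate 3 is its lowest value of all 24 arrays, and the interval is −0.19 to 0.03. None of the 4 intervals reaches beyond −0.19 or 0.15.

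*NUP50* was at 8.95, 8.92 and 8.83 with FMR4 siRNA, against 8.71, 8.52 and 8.68 with CTRL siRNA at 24 h. The groups do not overlap. The difference is 0.26 (SE 0.075, 95% interval 0.11 to 0.42, limma adjusted p = 0.0404), or 1.2-fold, close to the threshold. It was not called in a fit of only the 6 arrays (adjusted p = 0.0783), nor without FMR4 siRNA replicate 1 (0.152) or 2 (0.128), nor without the CTRL siRNA replicates 2 (0.255) or 3 (0.0684). FMR4 siRNA at 24 h is the condition with the highest *NUP50* mean of the 8, and FMR4 pcDNA3.1 at 24 h, at 8.68, 8.56 and 8.44, the one with the lowest.

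Overexpression was compared with the empty vector at the same times. At 24 h limma called 0 of the 9 genes and 0 of all genes (0% of all; 0 of the 9 and 602 of all genes had an unadjusted p under 0.05). At 6 h it also called 0 of the 9 genes (0% of all; 0 and 373 unadjusted). The 9 differences lie between −0.13 and 0.02 at 24 h and between −0.04 and 0.08 at 6 h. For *KPNA5* at 24 h every FMR4 pcDNA3.1 array lies below every CTRL pcDNA3.1 array, by −0.13 on average (95% interval −0.28 to 0.02, adjusted p = 0.999). The same holds for *TNPO1* at 24 h, with a smaller difference of −0.07 (95% interval −0.18 to 0.05). *KPNA1* differed by 0.00 at 24 h (95% interval −0.13 to 0.14) and *NUP50* by −0.12 (−0.27 to 0.04). The knockdown at 6 h also gave 0 calls among the 9 genes (0.0597% of all called; 0 of the 9 and 719 of all genes unadjusted), with differences from −0.12 to 0.05. The outermost, *NUP50*, was at 8.66, 8.65 and 8.69 with FMR4 siRNA, against 8.92, 8.69 and 8.75 with CTRL siRNA (95% interval −0.28 to 0.03). These arrays are only just apart (8.685 for FMR4 siRNA replicate 3, 8.694 for CTRL siRNA replicate 2), and the estimate has the opposite sign to that at 24 h.

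**Figure D2:**
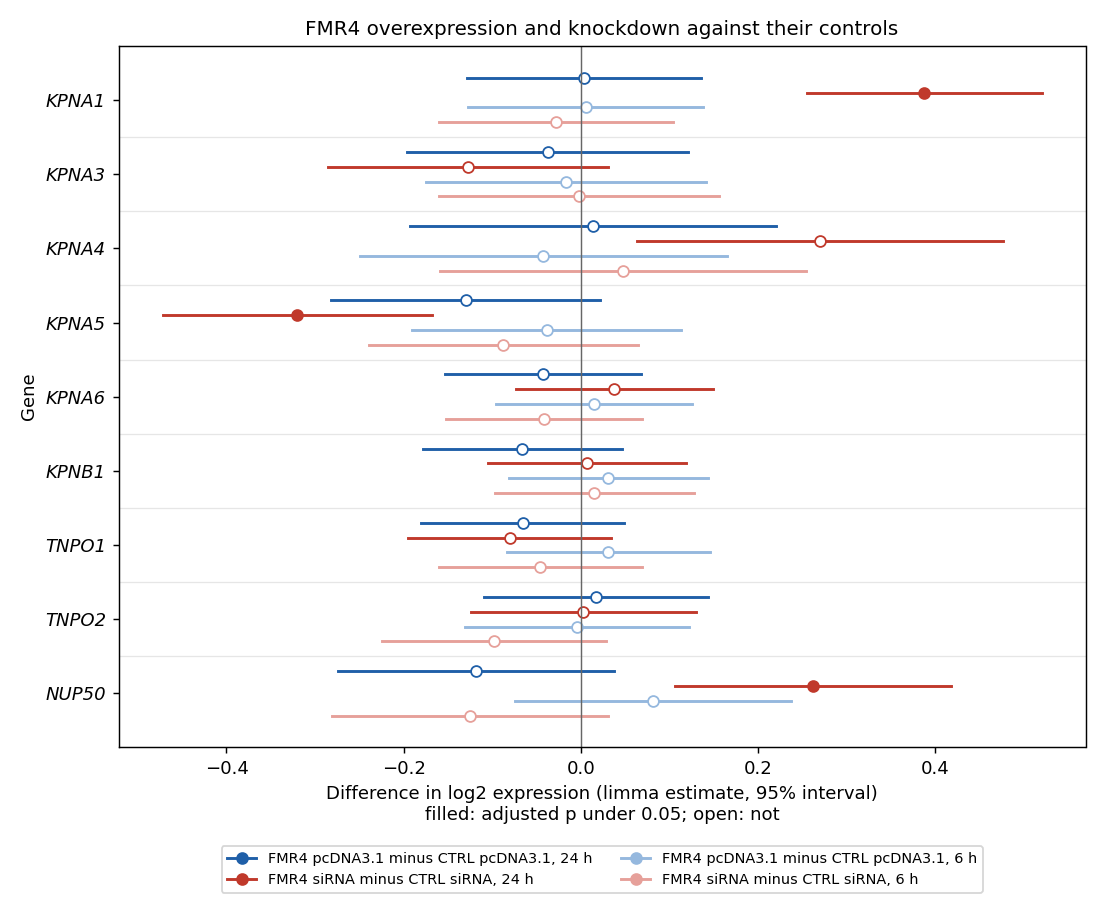
Differences in log2 expression for FMR4 pcDNA3.1 minus CTRL pcDNA3.1 and FMR4 siRNA minus CTRL siRNA at 24 and 6 h, with 95% intervals from limma. Filled points passed an adjusted p under 0.05: *KPNA1* (0.39), *NUP50* (0.26) and *KPNA5* (−0.32), each with FMR4 siRNA at 24 h, and no other.

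Differences between these effects were tested themselves. The knockdown effect on *KPNA1* was larger at 24 h than at 6 h by 0.42 (SE 0.090, 95% interval 0.23 to 0.60, limma adjusted p = 0.0217), the 1 call among the 9 genes where 1.18% of all were called. At 6 h *KPNA1* was at 10.70, 10.67 and 10.86 with FMR4 siRNA and at 10.81, 10.78 and 10.72 with CTRL siRNA, in overlap. Between the arms at 24 h, the overexpression effect on *KPNA1* minus the knockdown effect was −0.38 (SE 0.090, 95% interval −0.57 to −0.20, adjusted p = 0.0225), again the 1 call among the 9, with 2.12% of all called. Both rest on the same knockdown arrays of 24 h. The first was no longer called in a fit of only the siRNA arrays of both times (adjusted p = 0.183) or with the replicate block (0.0973). It also lost the call when FMR4 siRNA replicate 2 of 24 h (0.0647) or of 6 h (0.0664), CTRL siRNA replicate 2 of 24 h (0.0685) or CTRL siRNA replicate 1 of 6 h (0.0676) was left out. The second lost it with median centring (0.0556), the block (0.101), and without FMR4 pcDNA3.1 replicate 1 (0.0511) or 3 (0.0644), CTRL pcDNA3.1 replicate 1 (0.0753) or 2 (0.0669), FMR4 siRNA replicate 2 (0.0786) or CTRL siRNA replicate 2 (0.0801). *NUP50* had estimates of similar size, 0.39 between times (adjusted p = 0.0891) and −0.38 between arms (0.072), which were not called. Without FMR4 siRNA 6 h replicate 3, the array farthest from its group, the first was called (0.0315). Without CTRL pcDNA3.1 replicate 3 (0.027) or FMR4 pcDNA3.1 replicate 1 (0.0393) the second was. For *KPNA5* the same differences were −0.23 (adjusted p = 0.412) and 0.19 (0.535). Between the overexpression effects at 24 and 6 h limma called 0 of the 9 genes and 0% of all (0 of the 9 and 341 of all genes unadjusted).

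At 24 h the plasmid and siRNA conditions differed for *KPNA6* and *TNPO2*. Between the controls at 24 h, 3 of the 9 genes were called (4.48% of all), *KPNA1* higher (2.89% of all higher) and *KPNA6* and *TNPO2* lower with CTRL pcDNA3.1 than with CTRL siRNA (1.59% of all lower). *KPNA6* was at 11.74, 11.64 and 11.57 with CTRL pcDNA3.1, against the 12.02, 11.94 and 12.01 with CTRL siRNA. The groups are well apart, with a difference of −0.34 (SE 0.053, 95% interval −0.45 to −0.23, limma adjusted p = 0.00038) that was called in every alternative and without each array (−0.39 to −0.30). *TNPO2* was at 11.29, 11.18 and 11.16 with CTRL pcDNA3.1, also below the 11.43, 11.40 and 11.46 with CTRL siRNA (−0.22, SE 0.061, adjusted p = 0.0371). This was not called without CTRL pcDNA3.1 replicate 2 (0.153) or 3 (0.144) or CTRL siRNA replicate 1 (0.104), 2 (0.0653) or 3 (0.136), in a fit of only those arrays (0.0587) and with the block (0.0713). *KPNA1* was higher by 0.29 (SE 0.064, adjusted p = 0.00999), on the same CTRL siRNA arrays as its knockdown difference, and was not called without CTRL pcDNA3.1 replicate 2 (0.0585) or CTRL siRNA replicate 2 (0.056).

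FMR4 pcDNA3.1 was set against FMR4 siRNA at 24 h as well, a pairing of groups added with the values already known. Its arrays are not those of the control comparison, but the estimate of the spread is shared. In this pairing *FMR4* overexpression against knockdown cannot be told apart from plasmid against siRNA or from the reagent. The comparison called 3 of the 9 genes, all lower (8.38% of all called, 3.22% higher and 5.16% lower). *KPNA6* was at 11.61, 11.67 and 11.54 with FMR4 pcDNA3.1, against 12.02, 12.06 and 12.01 with FMR4 siRNA, with no overlap (−0.42, SE 0.053, limma adjusted p = 2.43e-05), and was called in every alternative and without each array. *TNPO2* was at 11.29, 11.20 and 11.19 with FMR4 pcDNA3.1, against 11.34, 11.46 and 11.51 with FMR4 siRNA, a difference of −0.21 (adjusted p = 0.0353). This call was lost without FMR4 siRNA replicate 2 (0.114) or 3 (0.123) or FMR4 pcDNA3.1 replicate 2 (0.105) or 3 (0.147), after quantile normalization (0.085), in a fit of only those arrays (0.0987) and with the block (0.065). *NUP50* differed by −0.34 (SE 0.075, adjusted p = 0.00601), and not so without FMR4 pcDNA3.1 replicate 3 (0.0567). *KPNA1*, called in the control comparison, differed by −0.10 here (adjusted p = 0.411), with the plasmid arrays lower and no overlap. So *KPNA6* and *TNPO2* were lower with plasmid in both comparisons of 24 h, and *KPNA1* had estimates of opposite sign.

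Between the controls at 6 h limma called 0 of the 9 genes (3.3% of all; 1 of the 9 and 4263 of all genes at an unadjusted p under 0.05). That 1 gene is *KPNA6*, at 11.75, 11.76 and 11.78 with CTRL pcDNA3.1, against 11.92, 11.95 and 11.89 with CTRL siRNA. The arrays do not overlap, and the difference of −0.16 (adjusted p = 0.0895) was called with trend and robust moderation (0.0492), array weights (0.0223) and quantile normalization (0.0318). *TNPO2* was at 11.44, 11.44 and 11.39 with CTRL pcDNA3.1, against 11.41, 11.50 and 11.40 with CTRL siRNA. It differed by −0.01 (95% interval −0.14 to 0.11). FMR4 pcDNA3.1 and FMR4 siRNA were not compared by a test at 6 h. Their *TNPO2* means were 11.42 and 11.34, in overlap, and their *KPNA6* means 11.78 and 11.88, without overlap.

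Time after transfection was compared within each condition. *KPNA1* was lower at 24 h than at 6 h in 3 of the 4 conditions. With CTRL siRNA the 10.37, 10.27 and 10.34 of 24 h stand against 10.81, 10.78 and 10.72 at 6 h, far apart, a difference of −0.45 (SE 0.064, limma adjusted p = 8.17e-05) called in every alternative and without each array (−0.473 to −0.415). With FMR4 pcDNA3.1 it was at 10.62, 10.63 and 10.60 at 24 h, against 10.86, 10.78 and 10.93 at 6 h (−0.24, adjusted p = 0.0252). With CTRL pcDNA3.1 it was at 10.67, 10.64 and 10.53 at 24 h, against 10.94, 10.86 and 10.75 at 6 h (−0.24, adjusted p = 0.0286). Neither pair of groups overlaps, but neither call held throughout. The first lost the call with the block (0.068) and without FMR4 pcDNA3.1 24 h replicate 1 (0.0738), 2 (0.055) or 3 (0.104) or 6 h replicate 1 (0.0775) or 3 (0.131). The second lost it in a fit of only those arrays (0.0573), with the block (0.073) and without CTRL pcDNA3.1 24 h replicate 2 (0.0702) or 3 (0.135) or 6 h replicate 1 (0.172) or 2 (0.0788). With FMR4 siRNA *KPNA1* differed by −0.03 between the times (95% interval −0.16 to 0.10, adjusted p = 0.803), in overlap.

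*KPNA4* and *KPNA3* were each called lower at 24 h in 1 siRNA condition. *KPNA4* with CTRL siRNA was at 9.84, 9.60 and 9.84 at 24 h, against 10.11, 9.99 and 10.43 at 6 h (−0.42, SE 0.0997, adjusted p = 0.00576). CTRL siRNA 6 h replicate 3 stands above the rest, and without it the difference is −0.29 (0.059). *KPNA3* with FMR4 siRNA was at 11.12, 11.20 and 11.04 at 24 h, against 11.28, 11.38 and 11.68 at 6 h, without overlap (−0.33, SE 0.076, adjusted p = 0.00531). Its highest value is FMR4 siRNA 6 h replicate 3, the array that lies farthest from its group. Without that array the difference is −0.21 (0.0347), and in a fit of only those arrays it was not called (0.194). In the other 3 conditions *KPNA3* differed by −0.20 to −0.14 without a call, and in each of them the arrays of 24 h lie below those of 6 h.

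*NUP50* had called differences of opposite sign with the *FMR4* reagents. With FMR4 siRNA the 8.95, 8.92 and 8.83 of 24 h stand against 8.66, 8.65 and 8.69 at 6 h (0.23, SE 0.075, adjusted p = 0.0375). With FMR4 pcDNA3.1 the 8.68, 8.56 and 8.44 of 24 h stand against 8.74, 8.87 and 8.87 at 6 h (−0.26, SE 0.075, adjusted p = 0.0372). Neither pair overlaps. With the controls *NUP50* differed by −0.15 for CTRL siRNA (adjusted p = 0.174) and −0.06 for CTRL pcDNA3.1 (0.686). The FMR4 siRNA difference lost its call in a fit of only those arrays (0.191), after quantile normalization (0.0937), with the block (0.0555) and without 24 h replicate 1 (0.12) or 2 (0.108) or 6 h replicate 1 (0.0523), 2 (0.0918) or 3 (0.0598). The FMR4 pcDNA3.1 difference lost it in a fit of only those arrays (0.0503), with the block (0.0663) and without 24 h replicate 2 (0.0917) or 3 (0.224) or 6 h replicate 2 (0.12) or 3 (0.142).

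*TNPO2* with CTRL pcDNA3.1 was at 11.29, 11.18 and 11.16 at 24 h, against 11.44, 11.44 and 11.39 at 6 h (−0.22, SE 0.061, adjusted p = 0.0386). The arrays of 24 h are all lower, as they are with FMR4 pcDNA3.1 (11.29, 11.20 and 11.19, against 11.47, 11.37 and 11.42), where −0.19 was not called (0.0626). With CTRL pcDNA3.1 the call was lost in a fit of only those arrays (0.0513), with the block (0.0765) and without 24 h replicate 2 (0.14) or 3 (0.145) or 6 h replicate 1 (0.138), 2 (0.106) or 3 (0.0618). *KPNA6* had estimates of opposite sign in the arms, without a call. Its differences were −0.17 with FMR4 pcDNA3.1 (adjusted p = 0.0567), −0.11 with CTRL pcDNA3.1 (0.231), 0.15 with FMR4 siRNA (0.0597) and 0.07 with CTRL siRNA (0.426). In 2 of these, both with *FMR4* reagents, other settings called it, among them trend and robust moderation (0.0213 with FMR4 pcDNA3.1 and 0.0252 with FMR4 siRNA), and with FMR4 siRNA it was called without 6 h replicate 3 (0.0428). *KPNA5*, *KPNB1* and *TNPO1* were not called between times in any condition, with differences from −0.15 to 0.13.

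Counted by condition, 2 of the 9 genes were called lower at 24 h with FMR4 pcDNA3.1 (6.33% of all called and 3.03% lower) and 2 lower with CTRL pcDNA3.1 (5.76% called and 1.93% lower). With FMR4 siRNA 1 was higher and 1 lower (16.7% of all called, 12.3% higher and 4.37% lower), and with CTRL siRNA 2 were lower (18.5% called and 8.75% lower). The median of the 9 differences was −0.16 with FMR4 pcDNA3.1, −0.11 with CTRL pcDNA3.1, −0.03 with FMR4 siRNA and −0.08 with CTRL siRNA, where that of all genes was 0.01, 0.03, 0.01 and −0.01.

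**Figure D3:**
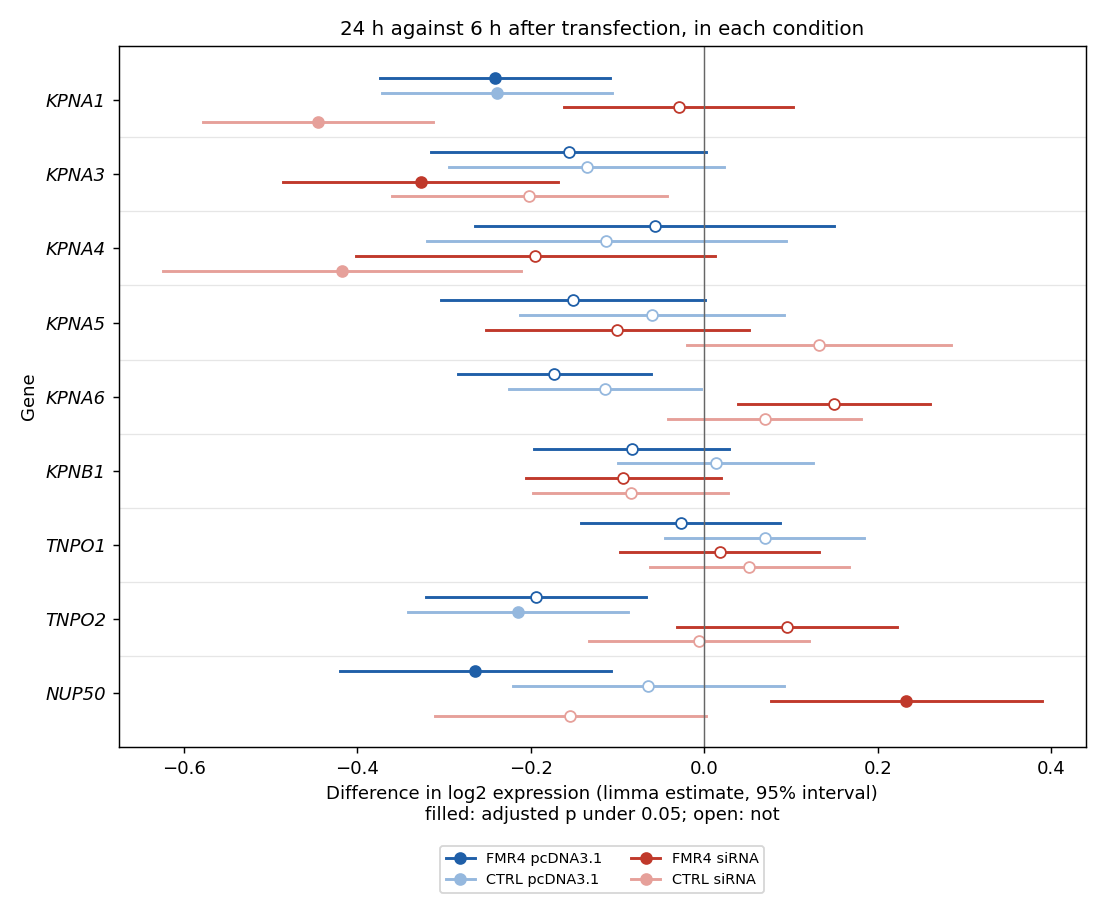
Differences in log2 expression between 24 and 6 h in each of the 4 conditions, with 95% intervals from limma. Filled points passed an adjusted p under 0.05. *KPNA1* with CTRL siRNA has the lowest estimate (−0.45), and *NUP50* has filled points on both sides of 0 (0.23 with FMR4 siRNA and −0.26 with FMR4 pcDNA3.1).

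Ranked over the 8 conditions, *KPNA1* spans 0.53 on the log2 scale (1.44-fold), the widest range of the 9, against a pooled SD within conditions of 0.072. Its order runs downward through FMR4 pcDNA3.1 6 h (10.86), CTRL pcDNA3.1 6 h (10.85), CTRL siRNA 6 h (10.77), FMR4 siRNA 6 h (10.74), FMR4 siRNA 24 h (10.71), FMR4 pcDNA3.1 24 h (10.62), CTRL pcDNA3.1 24 h (10.61) and CTRL siRNA 24 h (10.33). Neighbors overlap except FMR4 siRNA 24 h with FMR4 pcDNA3.1 24 h, and CTRL pcDNA3.1 24 h with CTRL siRNA 24 h. *KPNA4* spans 0.46 (SD 0.131), and only its lowest condition, CTRL siRNA 24 h (9.76), lies apart from its neighbor, CTRL pcDNA3.1 24 h. *KPNA6* spans 0.42 (SD 0.051). All siRNA conditions come first (means of 11.88 to 12.03), then both plasmid conditions at 6 h (11.78 and 11.76), then both at 24 h (11.65 and 11.61). Among neighbors in this order FMR4 siRNA 6 h does not overlap FMR4 pcDNA3.1 6 h, nor CTRL pcDNA3.1 6 h CTRL pcDNA3.1 24 h. Beyond neighbors, CTRL pcDNA3.1 24 h (up to 11.74) overlaps FMR4 pcDNA3.1 6 h (from 11.73).

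*KPNA3* spans 0.33 (SD 0.094), with all conditions of 6 h (11.31 to 11.45) above all of 24 h (11.12 to 11.25) and no overlap between FMR4 pcDNA3.1 6 h and CTRL siRNA 24 h, where they meet. *NUP50* spans 0.34 (SD 0.091) between FMR4 siRNA 24 h (8.90) and FMR4 pcDNA3.1 24 h (8.56), *KPNA5* 0.32 (SD 0.088) between CTRL siRNA 24 h (9.96) and FMR4 siRNA 24 h (9.64), and *TNPO2* 0.23 (SD 0.066) between CTRL siRNA 6 h (11.44) and CTRL pcDNA3.1 24 h (11.21). In these 3 genes every condition overlaps the next one in the order. *KPNB1* and *TNPO1* span 0.11 and 0.12, near 1.08-fold each, with SDs of 0.052 and 0.055 and overlap throughout.

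**Figure D4:**
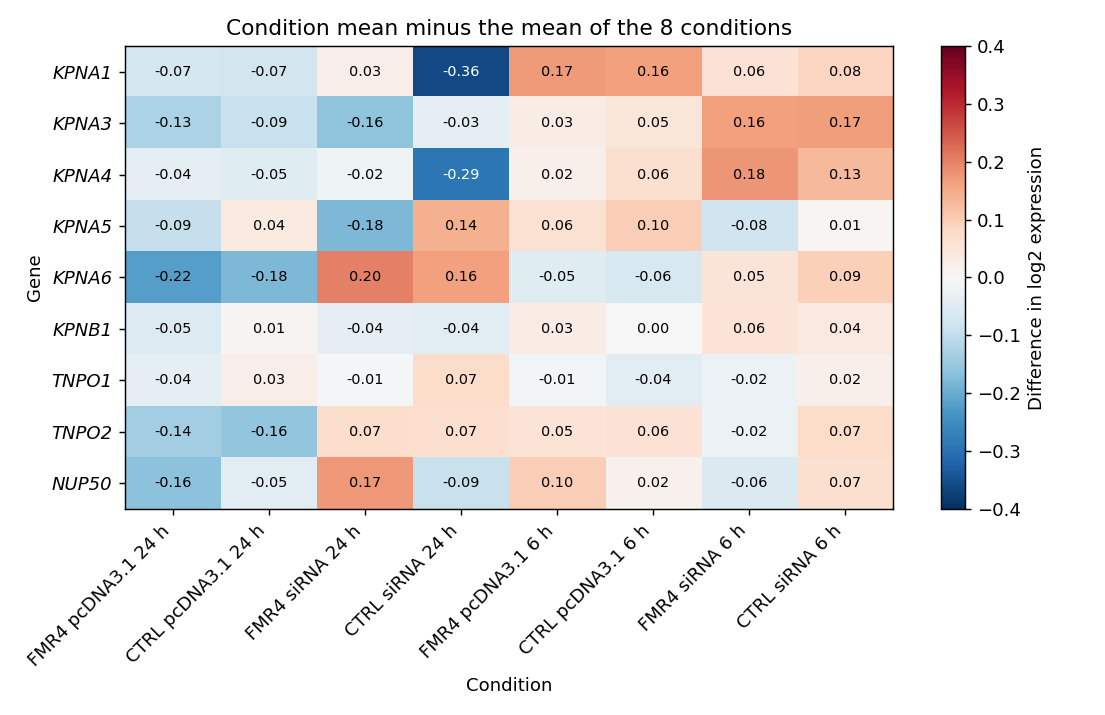
Mean log2 expression of each gene in each condition minus its mean over the 8 conditions, with red above and blue below it. The lowest values are *KPNA1* (−0.36) and *KPNA4* (−0.29) with CTRL siRNA at 24 h; *KPNA6* is at −0.22 and −0.18 with the plasmids and at 0.20 and 0.16 with the siRNAs of 24 h.

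Across the 24 arrays, which share conditions and are given here as a description, *KPNA6* and *TNPO2* had a Pearson r of 0.73 and *KPNA1* and *KPNA4* of 0.69, the highest among the 36 pairs of the 9 genes, and *KPNA1* and *TNPO1* the lowest (−0.31). Over all genes, those most like *KPNA1* were *USP38* (0.961) and *POLR1A* (0.944), and most like *KPNA6* were *SDHAF2* (0.963) and *DYNC1LI2* (0.932). *MID2* (0.953) and *NMT2* (0.942) were closest to *KPNA3*, *AAK1* (0.939) and *SHOC2* (0.93) to *KPNA4*, and *PLXNA1* (0.925) and *UPF1* (0.921) to *TNPO2*. The others had lower values. *KPNA5* was closest to *NUP54* (0.861), itself a nucleoporin of the central channel, and *NMD3* (0.833), *KPNB1* to *WAPL* (0.836) and *PRP4K* (0.827), *NUP50* to *BTBD9* (0.819) and *APP* (0.789), and *TNPO1* to *ERC1* (0.803) and *EPS15* (0.80).

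Other genes of nuclear transport were counted in 5 lists with 51 measured genes. With FMR4 siRNA at 24 h, 5 of them were called higher and 2 lower than with CTRL siRNA (3.43% and 2.45% of all). Of 9 other import receptors, *IPO11*, which carries ubiquitin-conjugating enzymes, was the 1 called, at 0.41 (SE 0.072, limma adjusted p = 0.00065). The list's median difference was 0.03, where that of all genes was 0.00. Of 26 measured nucleoporins 4 were higher and 2 lower, with a median of 0.07. *NDC1*, a membrane anchor of the pore (0.49, adjusted p = 0.00013), *NUP93* (0.24, 0.00964) and *NUP155* (0.21, 0.009), of the inner ring, and *NUP88*, of the cytoplasmic face (0.23, 0.00355), were higher. *NUP54* (−0.32, 0.00108) and *NUP37*, of the outer ring (−0.26, 0.0168), were lower. None of 7 exportins (median 0.07), 7 measured genes of the RAN cycle (−0.01) or 2 other importin alpha genes (−0.03) was called. The lowest p among them belongs to *XPO4* (0.20, adjusted p = 0.0571), *RANBP1* (−0.09, 0.546) and *KPNA7* (−0.06, 0.774).

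These lists had 0 calls of 51 in the overexpression at 24 and 6 h and in the knockdown at 6 h. *IPO11*, *NDC1*, *NUP88* and *NUP155* were also higher with CTRL pcDNA3.1 than with CTRL siRNA at 24 h, by 0.59, 0.55, 0.24 and 0.28 (limma adjusted p from 2.73e-05 to 0.0038). They share this with *KPNA1*, and both comparisons rest on the same CTRL siRNA arrays of 24 h. For the overexpression effect minus the knockdown effect at 24 h, limma called 4 of the 51 genes, where 2.12% of all were called. They are *NDC1* (−0.55, adjusted p = 0.00479), *IPO11* (−0.52, 0.0058), *NUP93* (−0.33, 0.025) and *NUP88* (−0.28, 0.0246). All 4 estimates are negative, as for *KPNA1*. These genes were named for a higher level in the knockdown, whose effect is subtracted here, so this sign is no separate result.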

How the data were processed

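The authors extracted total RNA, hybridized it to Affymetrix arrays (Human Gene 1.0 ST in the labels, 2.0 ST in the paper's methods), subtracted background and normalized with GC-RMA. The deposited values are log2 expression of 33297 probe sets on 24 arrays, from 2.62 to 14.5 with none missing, and were used as they are. GEO's platform annotation gives a gene for 21214 probe sets (12083 have none), a single symbol for 19460 and several for 1754. Genes with several probe sets (769) were read from that of highest mean.

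limma 3.58.1 (R 4.3.3) fitted 1 mean per condition to all arrays (16 residual degrees of freedom), with two-sided tests and Benjamini-Hochberg adjustment over the 21214 probe sets within each comparison. In the text, percentages of all genes called are shares of the 18417 genes with a probe set of a single symbol. The test was checked on simulated data. Figures used matplotlib 3.10.9 (Python 3.11.15).

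The genes, lists and rule for naming genes were chosen with earlier results of these data known. Named are the 9 genes and the 2 other importin alpha genes. List genes called in the knockdown at 24 h (or that of lowest p) are named too. So are, for each of the 9, the 2 genes of highest correlation. Alternatives were a fit of only the arrays of a comparison, trend and robust moderation, quantile normalization, array weights, median centring, dim probe sets left out, the mean over probe sets, the replicate number as a block, and each array left out. The deviations of same-number arrays correlated between −0.379 and 0.474, and in 0 of 11 comparisons were all 3 correlations over 0.1, so the numbers were treated as names only.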

Additional observations from a re-analysis of the deposited data

Results flagged for a closer look

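For *KPNA1* 2 of the 3 tests of a difference between effects passed the threshold. The knockdown effect at 24 h minus that at 6 h was 0.416 (limma adjusted p = 0.0217), and the overexpression effect minus the knockdown effect at 24 h was −0.384 (adjusted p = 0.0225). Some alternatives, such as the replicate block, left both estimates unchanged, so a kept sign there is no check. Each estimate kept its sign in all alternatives, from 0.377 to 0.475 and from −0.427 to −0.346 when 1 array was left out. The first was called in 8 of 12 such omissions and in 6 of 8 other alternatives, and the second in 6 of 12 and 6 of 8; the replicate block ended both calls (adjusted p = 0.0973 and 0.101). *NUP50* had estimates of similar size, 0.39 and −0.38, that were not called. Both *KPNA1* differences contain the CTRL siRNA arrays of 24 h, in which *KPNA1* was lower than in any other condition. What sets those arrays apart was not tested.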

How the results depend on the processing

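Of 1926 recomputed differences of the 9 genes, 1830 stayed on their side of the threshold and 96 crossed it. Most belong to differences that were not called, as only 19 of 126 were. Of the 278 recomputed differences for these 19, 205 stayed called and 73 lost the call. None of the 278 changed sign, but some alternatives, such as the replicate block, cannot move an estimate. *KPNA6* between plasmid and siRNA at 24 h, *KPNA1* in the knockdown at 24 h and *KPNA1* between times with CTRL siRNA were called throughout. The number of the 9 genes called between controls at 6 h (0) became 1 with trend and robust moderation, array weights or quantile normalization. Between times with FMR4 pcDNA3.1 (2) it became 4 with trend and robust moderation, array weights, removal of dim probe sets or median centring, 1 in a fit of only those arrays and 0 with the replicate block. Between times with CTRL pcDNA3.1 (2) it became 0 in a fit of only those arrays and 0 with the block. With FMR4 siRNA (2) it became 0 in a fit of only those arrays, 1 with the block and 1 after quantile normalization. For the knockdown effect between times (1) it became 2 with array weights and 0 in a fit of only those arrays or with the block. For the difference between arms at 24 h (1) it became 2 with array weights and 0 with median centring or the block. With 1 array left out the counts ran from 1 to 3 in the knockdown at 24 h, between controls at 24 h and for FMR4 pcDNA3.1 against FMR4 siRNA, from 0 to 2 between times with CTRL pcDNA3.1, for the knockdown effect between times and between arms, from 0 to 1 between times with FMR4 pcDNA3.1, and from 1 to 2 between times with either siRNA. The causes of these changes were not tested. A fit of only those arrays, or without 1 array, rests on fewer arrays. The replicate numbers were treated as names: 11 of 33 same-number pairs correlated best with each other, and in 1 of 11 comparisons, the overexpression at 6 h, all 3 did. The correlation of 0.474 belongs to replicate 3 of FMR4 siRNA and CTRL siRNA at 6 h. In both groups replicate 3 is highest for *KPNA3* (11.68 and 11.56) and for *KPNA4* (10.49 and 10.43). Whether these 2 arrays share a source was not tested.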
